A study of Homo sapiens with 10 samples.

Results

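NCK1, NCK2, GRB2, GRIP1, PTPN13, SDCBP, PICK1 and TJP1 encode cytoplasmic proteins that bind the tail of B ephrins or its partners, and ADAM10 encodes a protease that sheds ephrins and Eph receptors. These 9 genes were taken by gene name from a table of 60573 genes, and all 9 were found and passed the low-count filter that 17833 genes passed. Their RNA was measured in U266, a long-established human line from multiple myeloma, labelled as plasma cells, by sequencing of poly(A) RNA. Cells of both groups carried dCas9-VPR from a lentivirus. This is a catalytically dead Cas9 fused to transcriptional activators, which raises a gene to whose start a guide RNA directs it. The EFNB2 guide group had a guide (gRNA2) to the start of EFNB2, and the control guide group had a scrambled guide (cgRNA) with no target. Each group had 5 libraries, A to E. Both groups were selected with blasticidin and puromycin, and the labels give no other treatment. The labels do not say whether libraries came from separate cultures, so p-values measure the spread between libraries, which may be technical.

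B ephrins are membrane-bound ligands of Eph receptors that also signal into the cell that carries them, which is called reverse signalling. After contact with a receptor, Src family kinases phosphorylate tyrosines in the ephrin-B tail, and SH2 adaptors such as NCK2 bind there and link it to the actin cytoskeleton. The tail ends in a motif that holds PDZ domain proteins, among them GRIP1, syntenin (SDCBP), PICK1 and the phosphatase PTPN13. Metalloproteases such as ADAM10 cut the part outside the cell, and gamma-secretase can then release the tail. These pathways are best known from axon guidance and vessel growth.

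EFNB2 RNA was higher with its guide and stayed low in both groups. The counts in libraries A to E were 52, 58, 60, 73 and 61 under the EFNB2 guide and 9, 7, 8, 6 and 2 under the control guide. The groups did not overlap. EFNB2 averaged 1.21 ± 0.198 CPM (counts on a common library scale) with its guide and 0.119 ± 0.0509 CPM under the control guide (SD, n = 5 each). That was a 9.96-fold difference, with an interval of ± 2 SE that ran up to 14.1-fold (edgeR quasi-likelihood test, adjusted p = 4.69e-08). The submitters state an 80 to 100-fold increase by qPCR, which lies above that interval. Libraries held 47267929 to 56513336 counts, so that 3 counts correspond to at most 0.0627 CPM. All 8 plasma cell markers averaged at least 1 CPM, and their summed level was 3532 to 3764 CPM under the EFNB2 guide and 4024 to 4652 CPM under the control guide. SDC1 made up most of that sum, at 2121 CPM under the EFNB2 guide and 3015 CPM under the control guide. TNFRSF17 and MZB1 also had lower means under the EFNB2 guide. CD38, SLAMF7, XBP1, IRF4 and PRDM1 had higher means under it. CD38 averaged 8.035 CPM under the EFNB2 guide and 1.779 CPM under the control guide. The gap was small for IRF4 (667.3 against 647.5 CPM under the control guide) and PRDM1 (143.2 against 140.9 CPM). Of 4 markers each, B cell and myeloid cell lists had 0 at that level, while the T and NK cell list and the stromal or epithelial list had 1 each. The summed stromal or epithelial level was 23.2 to 27.2 CPM under the EFNB2 guide and 16.4 to 22.2 CPM under the control guide, nearly all of it COL1A1. The part of these differences in the results was not tested. The A libraries stood apart from the other 4 of their guide. The EFNB2 guide A library lay outside the range of B to E for 59.6% of all tested genes and the control guide A library for 60.9%, against 29.4% to 40.2% for the other 8 libraries. Each A library did so for 8 of the 9 genes. Values without both A libraries are therefore given beside each result that rests on them.

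The sequences just before the starts of EFNB2, NCK2, NCK1 and ADAM10 show the target of the guide and members that passed the test in every alternative analysis. GRIP1 also passed in every alternative, and its sequence is not shown. RefSeq held a window for 7 of the 9 genes. Each line gives the 250 bases before a RefSeq start (GRCh38.p14), 5′ to 3′ on the strand of the gene, with CCAAT or its reverse complement ATTGG in capitals.
EFNB2, chr13:106535663-106535912, minus strand: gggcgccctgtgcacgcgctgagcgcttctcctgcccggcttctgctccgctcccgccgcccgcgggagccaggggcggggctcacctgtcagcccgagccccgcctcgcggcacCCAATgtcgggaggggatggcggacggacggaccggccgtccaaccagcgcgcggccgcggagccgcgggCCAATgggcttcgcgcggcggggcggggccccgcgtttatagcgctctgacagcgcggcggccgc
NCK2, chr2:105851597-105851846, plus strand: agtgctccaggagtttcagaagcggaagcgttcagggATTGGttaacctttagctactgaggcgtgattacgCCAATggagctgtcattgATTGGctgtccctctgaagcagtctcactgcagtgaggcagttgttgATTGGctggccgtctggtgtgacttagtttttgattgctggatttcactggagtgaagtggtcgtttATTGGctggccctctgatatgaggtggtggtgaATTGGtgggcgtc
NCK1, chr3:136861958-136862207, plus strand: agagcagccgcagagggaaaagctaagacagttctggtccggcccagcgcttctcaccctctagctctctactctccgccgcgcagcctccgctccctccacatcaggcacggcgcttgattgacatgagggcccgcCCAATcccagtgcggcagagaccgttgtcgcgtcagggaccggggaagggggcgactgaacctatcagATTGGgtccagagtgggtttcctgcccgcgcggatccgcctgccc
ADAM10, chr15:58749708-58749957, minus strand: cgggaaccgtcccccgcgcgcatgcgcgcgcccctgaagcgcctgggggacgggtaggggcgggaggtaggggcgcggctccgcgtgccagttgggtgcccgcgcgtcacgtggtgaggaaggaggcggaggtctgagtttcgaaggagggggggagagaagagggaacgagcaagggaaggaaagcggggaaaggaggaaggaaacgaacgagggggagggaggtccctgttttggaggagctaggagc
The motifs were chosen after the windows had been read, and they were searched on both strands. The single GC box of the NCK1 window shares 2 bases with a CCAAT match, and the other GC boxes share none. The NCK2 window held 6 CCAAT matches and no GC box (GGGCGG or CCGCCC), with a GC content of 50.8%. Of 34943 windows of the same length, 0.106% held as many CCAAT matches. The EFNB2 window and the NCK1 window shown held 2 CCAAT matches each, as many as 9.54% of windows held, and the ADAM10 window held 0. The GC box occurred 3 times before EFNB2 and 1 time each before NCK1 and ADAM10, and 42.5% of windows held it. EFNB2 also had 1 TATAAA match, which 10.8% of windows held. NCK1 has a second RefSeq window, not shown, with 1 CCAAT match, 0 GC boxes, 1 TATAAA match and a GC content of 33.6%. The NCK2 window lies inside the annotated NCK2 gene, at a start downstream of its outermost one. The matches are letters in these windows and do not show binding.

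GRIP1, NCK2 and NCK1 RNA was lower under the EFNB2 guide, and ADAM10 RNA was higher. GRIP1 fell by 35.3%, NCK2 fell by 27.7% and NCK1 fell by 12.7%, and ADAM10 rose by 26.9%. TJP1 rose by 0.19 on the log2 scale with an adjusted p of 0.0499. That borderline call was kept in 9 of 20 alternatives and was lost without either A library. GRB2, SDCBP, PICK1 and PTPN13 did not pass the test in all 10 libraries. Thus 2 of the 9 genes passed as higher, 3 as lower and 4 did not pass. The share called was 55.6%, against 45.4% of all 17833 genes tested, 22.8% as higher and 22.6% as lower. Among the tested genes whose mean log2 CPM as edgeR gives it was 1 or more, as all 9 genes had, 54.5% were called. The share among the 9 genes was therefore near the background. The groups did not overlap for 3 of 9 genes, against 30.3% of all tested genes. The median absolute log2 fold change was 0.19 for the 9 genes and 0.16 for all tested genes. With fewer counts of a gene in such bulk RNA, fewer cells that express it and less RNA per cell cannot be told apart.

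**Figure D1:**
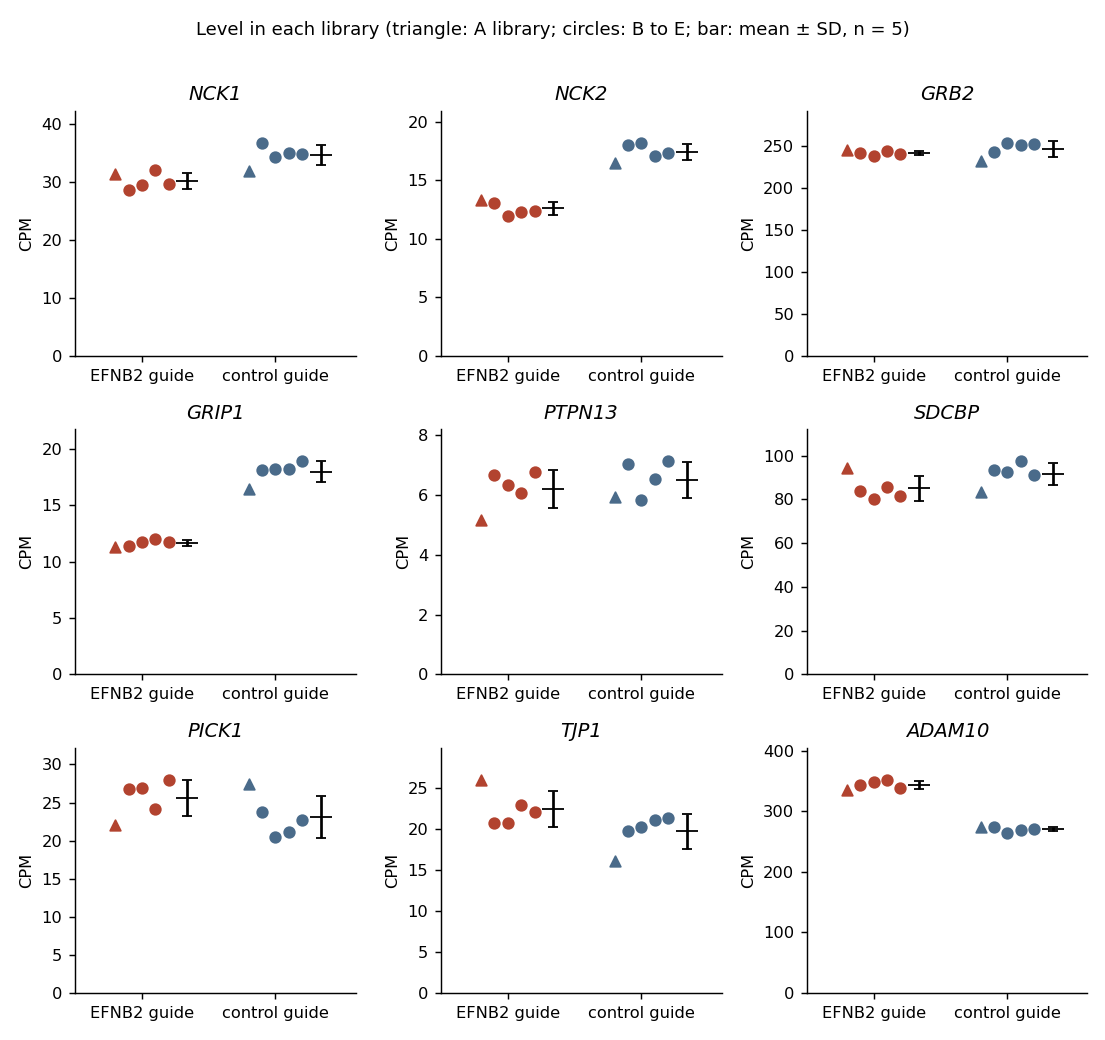
Level of each of the 9 genes in every library, in CPM on an axis from 0, with EFNB2 guide libraries left of control guide libraries. Triangles are the A libraries, circles B to E, and bars the mean ± SD (n = 5). The groups are apart for NCK2, GRIP1 and ADAM10 and overlap for the other 6 genes.

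NCK2 and NCK1 are SH2/SH3 adaptors that link phosphotyrosines to regulators of actin such as PAK kinases and WASP proteins. NCK2, also called GRB4, spans chr2:105744453-105894272 on the plus strand (GRCh38). NCK2 stood at 13.3, 13.1, 11.98, 12.3 and 12.4 CPM in the EFNB2 guide libraries A to E, and at 16.5, 18.1, 18.2, 17.1 and 17.3 CPM in the control guide libraries. The lowest control guide library lay above the highest EFNB2 guide library. The means were 12.6 ± 0.543 CPM under the EFNB2 guide and 17.4 ± 0.699 CPM under the control guide (SD, n = 5 each). NCK2 fell by 0.47 ± 0.04 (SE) on the log2 scale (adjusted p = 5.13e-07) and passed in 20 of 20 alternatives. Of its distinct 50-base stretches of transcript sequence, 6.43% lie in the antisense gene AC010978.1, which had 29 counts in all against 7901 for NCK2.

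NCK1, the close relative of NCK2 at chr3:136862208-136951606 (plus strand), fell by less. NCK1 stood at 31.4, 28.6, 29.6, 32.1 and 29.6 CPM in the EFNB2 guide libraries and at 32.0, 36.8, 34.4, 35.1 and 34.9 CPM in the control guide libraries. The control guide A library was the lowest of its group and lay just under the highest EFNB2 guide library, D, so the groups overlapped. NCK1 averaged 30.3 ± 1.41 CPM under the EFNB2 guide and 34.7 ± 1.72 CPM under the control guide (SD, n = 5 each). It fell by 0.20 ± 0.04 (SE) on the log2 scale (adjusted p = 0.00123) and passed in 20 of 20 alternatives, the highest adjusted p being 0.0104. Reads shared with IL20RB, which overlaps 66 exonic bases of NCK1 on the same strand, could be counted for either gene, and IL20RB had 708 counts against 17008 for NCK1.

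GRB2, the SH2/SH3 adaptor that couples receptors to the RAS exchange factor SOS, lies at chr17:75318076-75405678 (minus strand). It was the most abundant of the 3 SH2/SH3 adaptors per length. GRB2 stood at 245.0, 242.2, 238.6, 243.7 and 240.0 CPM in the EFNB2 guide libraries and at 231.7, 243.4, 253.7, 250.7 and 252.3 CPM in the control guide libraries. The control guide A library was the lowest of all 10 libraries. The difference was -0.03 ± 0.03 (SE) on the log2 scale (adjusted p = 0.449), with an interval of ± 2 SE between -0.08 and 0.03. Without both A libraries it was -0.05 with an adjusted p of 0.0246, the 1 alternative of 20 in which GRB2 passed.

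GRIP1, a scaffold with several PDZ domains that clusters B ephrins and glutamate receptors, had the largest difference of the 9 genes. It spans chr12:66347431-67069338 on the minus strand. GRIP1 stood at 11.3, 11.4, 11.8, 11.97 and 11.7 CPM in the EFNB2 guide libraries and at 16.5, 18.1, 18.2, 18.2 and 18.9 CPM in the control guide libraries. The groups lay far apart, and the EFNB2 guide libraries were close to each other. GRIP1 averaged 11.6 ± 0.282 CPM under the EFNB2 guide and 18.0 ± 0.907 CPM under the control guide (SD, n = 5 each). It fell by 0.63 ± 0.04 (SE) on the log2 scale (adjusted p = 1.97e-08) and passed in 20 of 20 alternatives. A larger absolute log2 fold change was found for 9.38% of all tested genes. GRIP1 shares 215 exonic bases with HELB on the opposite strand, and without a stated strand setting reads there could not be assigned with certainty. HELB, a DNA helicase with 10366 counts against 7791 for GRIP1, fell by 0.23 on the log2 scale (adjusted p = 0.0033).

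SDCBP, or syntenin, at chr8:58553261-58582858 (plus strand), is a PDZ protein that also binds syndecans and takes part in exosome formation. SDCBP stood at 94.5, 83.9, 80.1, 85.7 and 81.4 CPM in the EFNB2 guide libraries and at 83.2, 93.5, 92.7, 97.3 and 91.0 CPM in the control guide libraries. Each A library lay within the range of libraries B to E of the other guide. The difference was -0.10 ± 0.05 (SE) on the log2 scale (adjusted p = 0.0777) and passed in 5 of 20 alternatives. Without both A libraries it was -0.18 (adjusted p = 4.93e-06). The pseudogenes SDCBPP3 and SDCBPP2 hold 1.78% and 1.01% of the 50-base stretches of SDCBP, which makes its count uncertain to that extent.

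PICK1, which joins a PDZ domain to a membrane-bending BAR domain and also binds protein kinase C alpha, lies at chr22:38057255-38075701 (plus strand). PICK1 stood at 22.1, 26.8, 26.8, 24.2 and 28.0 CPM in the EFNB2 guide libraries and at 27.5, 23.7, 20.5, 21.1 and 22.7 CPM in the control guide libraries. Here too each A library lay within the range of libraries B to E of the other guide. The difference was 0.15 ± 0.08 (SE) on the log2 scale (adjusted p = 0.135), and it passed in 3 of 20 alternatives, each of which left out an A library or both. Without both A libraries PICK1 was higher by 0.27 (adjusted p = 5.86e-05). The antisense gene AL031587.2, which overlaps 394 exonic bases of PICK1, had 37 counts against 12688 for PICK1.

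PTPN13, a large tyrosine phosphatase with PDZ domains, at chr4:86594315-86815161 (plus strand), had the lowest level per length of the 9 genes. PTPN13 stood at 5.18, 6.69, 6.33, 6.07 and 6.76 CPM in the EFNB2 guide libraries and at 5.94, 7.04, 5.82, 6.54 and 7.13 CPM in the control guide libraries. The groups overlapped almost wholly. The difference was -0.07 ± 0.08 (SE) on the log2 scale (adjusted p = 0.553), with an interval of ± 2 SE between -0.23 and 0.10, and it passed in 0 of 20 alternatives, whose adjusted p ran from 0.329 to 0.98.

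TJP1 encodes ZO-1, a PDZ scaffold of tight junctions, at chr15:29699367-29969049 (minus strand). TJP1 stood at 25.97, 20.7, 20.7, 22.9 and 22.04 CPM in the EFNB2 guide libraries and at 16.1, 19.7, 20.2, 21.1 and 21.3 CPM in the control guide libraries. The highest and the lowest of the 10 libraries were the 2 A libraries, and libraries B to E overlapped between guides. TJP1 averaged 22.5 ± 2.18 CPM under the EFNB2 guide and 19.7 ± 2.09 CPM under the control guide (SD, n = 5 each). It rose by 0.19 ± 0.08 (SE) on the log2 scale (adjusted p = 0.0499) and passed in 9 of 20 alternatives. Without both A libraries the difference was 0.07 (adjusted p = 0.186). Leaving out the EFNB2 guide A library alone gave 0.14 (adjusted p = 0.113), and leaving out the control guide A library alone gave 0.12 (adjusted p = 0.0917). The call was also lost without EFNB2 guide library D (adjusted p = 0.0865) or E (0.0638). The same held without control guide library B (0.0749) or C (0.0646). TJP1 shared none of its 50-base stretches with another annotated gene.

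ADAM10, the metalloprotease that sheds many membrane proteins including ephrins, lies at chr15:58588809-58749707 (minus strand). ADAM10 stood at 335.0, 342.7, 348.8, 351.9 and 338.1 CPM in the EFNB2 guide libraries and at 274.1, 273.7, 264.9, 268.7 and 271.1 CPM in the control guide libraries. Every EFNB2 guide library lay above every control guide library, with a gap wider than the range of either group. ADAM10 averaged 343.3 ± 7.08 CPM under the EFNB2 guide and 270.5 ± 3.83 CPM under the control guide (SD, n = 5 each). It rose by 0.34 ± 0.02 (SE) on the log2 scale (adjusted p = 8.2e-09) and passed in 20 of 20 alternatives. Its level was at or above that of 97.1% of all tested genes by mean log2 CPM.

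**Figure D2:**
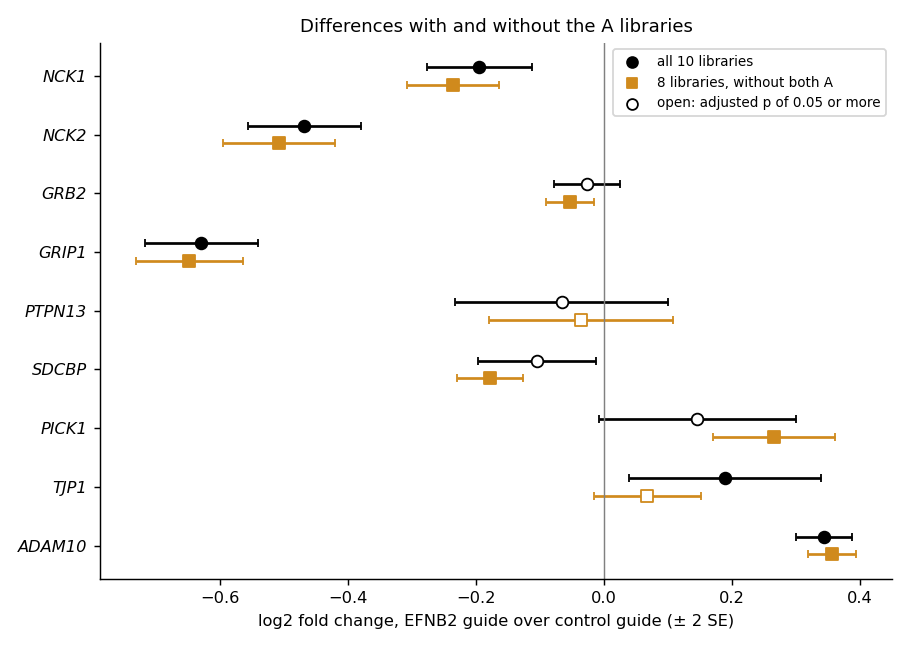
Log2 fold change (EFNB2 guide over control guide, bars ± 2 SE) of the 9 genes in all 10 libraries (black) and without both A libraries (orange), with open symbols where the adjusted p is 0.05 or more. GRB2, SDCBP and PICK1 are filled and TJP1 is open without the A libraries, while NCK1, NCK2, GRIP1 and ADAM10 are filled in both.

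Leaving out both A libraries therefore changed the call of 4 of the 9 genes and the direction of none. In those 8 libraries 7 of the 9 genes passed, ADAM10 and PICK1 as higher and NCK1, NCK2, GRIP1, SDCBP and GRB2 as lower, and 55.2% of all tested genes were called, 28.0% as higher and 27.2% as lower. For EFNB2, NCK2, GRIP1 and ADAM10 both A libraries lay on the side of their own guide. What set the A libraries apart was not tested.

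Per kilobase of exon, GRB2 was the most abundant of the 9 genes, at 51.3 ± 0.558 CPM per kb under the EFNB2 guide and 52.2 ± 1.93 CPM per kb under the control guide (SD, n = 5 each). With the EFNB2 guide, ADAM10 followed at 21.2 ± 0.438, SDCBP at 17.8 ± 1.19, NCK1 at 8.12 ± 0.378, PICK1 at 5.85 ± 0.55, NCK2 at 4.21 ± 0.182, TJP1 at 1.99 ± 0.194, GRIP1 at 1.77 ± 0.043 and PTPN13 at 0.654 ± 0.0672 CPM per kb. With the control guide, SDCBP followed GRB2 at 19.2 ± 1.09, then ADAM10 at 16.7 ± 0.237, NCK1 at 9.3 ± 0.462, NCK2 at 5.83 ± 0.234, PICK1 at 5.29 ± 0.63, GRIP1 at 2.74 ± 0.138, TJP1 at 1.75 ± 0.186 and PTPN13 at 0.684 ± 0.0637 CPM per kb. Thus 3 neighbouring pairs stood in opposite order in the 2 groups: ADAM10 and SDCBP, PICK1 and NCK2, and TJP1 and GRIP1. NCK2 and PICK1 under the control guide differed by less than the SD of PICK1, and TJP1 and GRIP1 under the EFNB2 guide by little more than the SD of TJP1, so those places in the order were not clear. The lengths are those of all annotated exons, so levels between genes depend on which isoforms are made.

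Ratios of related genes within a library do not depend on how libraries are scaled. The ratio of NCK2 to NCK1 counts was 0.423, 0.456, 0.405, 0.385 and 0.418 in the EFNB2 guide libraries and 0.516, 0.491, 0.529, 0.488 and 0.496 in the control guide libraries. All 5 EFNB2 guide libraries lay under all 5 control guide libraries. On the log2 scale the ratio was -1.26 ± 0.09 under the EFNB2 guide and -0.99 ± 0.05 under the control guide (SD, n = 5 each), a difference of -0.27 (two-sided exact permutation test, p = 0.0079, the smallest that 5 against 5 can give, and 0.012 adjusted over 3 ratios). NCK2 thus fell by more than NCK1, and the difference was larger than the spread between libraries.

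ADAM17 is the other main sheddase of the family and was not called, at 63.6 ± 1.34 CPM under the EFNB2 guide and 64.7 ± 1.153 CPM under the control guide (SD, n = 5 each, adjusted p = 0.48). The ratio of ADAM10 to ADAM17 counts was 5.18, 5.46, 5.33, 5.57 and 5.44 in the EFNB2 guide libraries and 4.29, 4.10, 4.13, 4.16 and 4.23 in the control guide libraries. The groups did not overlap. On the log2 scale it was 2.43 ± 0.04 under the EFNB2 guide and 2.06 ± 0.03 under the control guide (SD, n = 5 each). The difference was 0.37 (two-sided exact permutation test, p = 0.0079, 0.012 adjusted over 3 ratios). ADAM10 lies on chromosome 15, whose tested genes had a median log2 fold change of 0.31. ADAM17 lies on chromosome 2, where the median was -0.03. The part of the chromosome in this ratio was not tested.

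**Figure D3:**
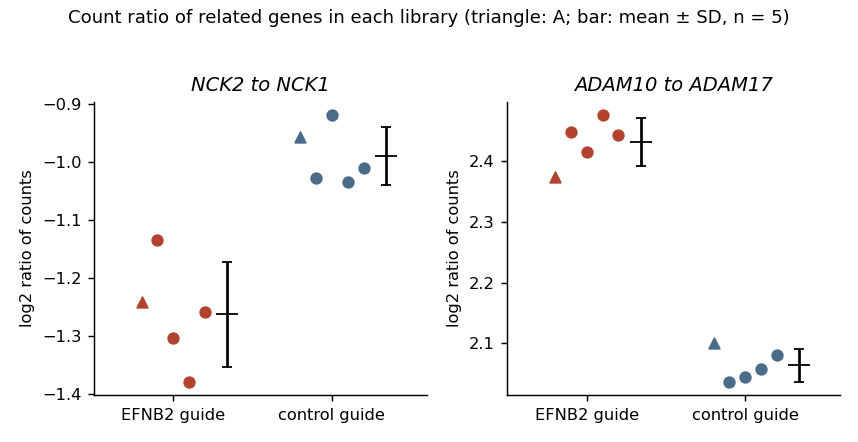
Log2 ratio of the counts of NCK2 to NCK1 and ADAM10 to ADAM17 in each library, EFNB2 guide left of control guide, with triangles for the A libraries and bars for the mean ± SD (n = 5). Neither ratio overlaps between guides: the NCK2 to NCK1 ratio is lower and the ADAM10 to ADAM17 ratio higher in all 5 EFNB2 guide libraries.

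Both members called as higher lie on chromosome 15, where most called genes were higher. Of 623 tested genes on chromosome 15, 63.9% passed as higher and 4.33% as lower, with a median log2 fold change of 0.31. On all other chromosomes 21.6% of 16705 tested genes passed as higher and 23.6% as lower, with a median of 0.00. ADAM10 lay 0.03 above the chromosome 15 median, at or above 54.7% of its genes, and TJP1 lay 0.12 below it, at or above 31.0% of them. The differences of both genes were thus close to or below the usual one of their chromosome, and what moved chromosome 15 was not tested. With libraries scaled on the genes outside chromosome 15, both genes were still called. The other 7 genes lie on chromosomes whose medians were between -0.03 and 0.04. GRIP1 was at or above 3.07% of the tested genes of chromosome 12, NCK2 at or above 6.75% of those of chromosome 2 and NCK1 at or above 20.3% of those of chromosome 3.

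**Figure D4:**
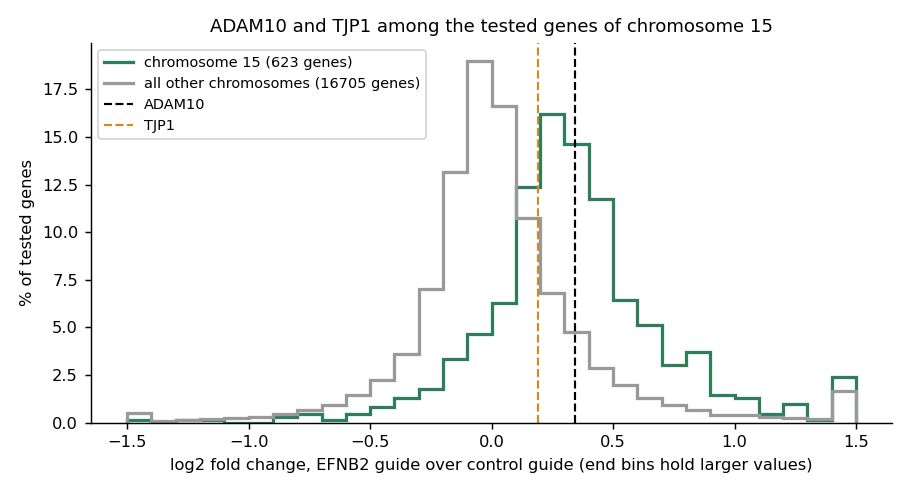
Distribution of the log2 fold change (EFNB2 guide over control guide) over 623 tested genes of chromosome 15 (green) and 16705 genes of the other chromosomes (grey), in % of tested genes, with dashed lines at ADAM10 and TJP1. The chromosome 15 curve lies to the right, and both lines fall inside it.

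Among 12251 tested genes whose log2 CPM, averaged over the libraries with equal weight, was 1 or more, those whose log2 CPM followed each called gene most closely over the 10 libraries were as follows. GRIP1 went with CAMK1D (Pearson r = 0.9972) and PTPRK (0.9965), and NCK2 with ARID3B (0.9948) and PTK2B (0.9947). NCK1 went with KLHL5 (0.9841) and TMEM230 (0.9791), and ADAM10 with HAUS2 (0.9966) and ZWILCH (0.9963). TJP1 went with APOL6 (0.9536) and TSPAN3 (0.9462). The libraries share their guide groups and their scaling, so these values describe a common pattern over 10 points.

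Genes around the 9 genes in the pathway were taken as 8 lists, whose counts are to be read against all tested genes, of which 45.4% were called, 22.8% as higher and 22.6% as lower. List counts without both A libraries are to be read against 55.2% called there, 28.0% as higher and 27.2% as lower. Of 29 listed genes for SH2/SH3 partners of NCK and GRB2, 26 were tested, of which 4 passed as higher, 11 as lower and 11 did not pass, with a median log2 fold change of -0.06. That was 57.7% called, near the 54.5% of tested genes at a log2 CPM of 1 or more. NCKAP1L, the blood cell form of a WAVE complex subunit, averaged 28.9 CPM under the EFNB2 guide and 53.1 CPM under the control guide and fell by 0.87 on the log2 scale (adjusted p = 4.86e-11). PAK2, a kinase that NCK recruits, averaged 284.7 CPM under the EFNB2 guide and 374.3 CPM under the control guide and fell by 0.39 (adjusted p = 1.04e-08). GAB2, a docking protein that GRB2 binds, fell by 0.55 (adjusted p = 2.23e-07). In the other direction, PAK1, the close relative of PAK2, averaged 251.1 CPM under the EFNB2 guide and 190.5 CPM under the control guide and rose by 0.40 (adjusted p = 1.76e-08). CYFIP1, another WAVE complex subunit, on chromosome 15, averaged 34.6 CPM under the EFNB2 guide and 17.8 CPM under the control guide and rose by 0.96 (adjusted p = 1.82e-09). SHC1, an adaptor that recruits GRB2, rose by 0.10 (adjusted p = 0.0079). The SE of the log2 fold change of genes named from this and the following lists was between 0.02 and 0.32, with a median of 0.05. Without both A libraries 4 partners passed as higher and 15 as lower.

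Of the 10 paralogues of the 9 genes, 7 were tested, with 1 higher, 1 lower and 5 not called (median -0.07), and 1 higher and 2 lower without both A libraries. PTPN3, a phosphatase related to PTPN13, averaged 77.9 CPM under the EFNB2 guide and 60.2 CPM under the control guide and rose by 0.37 (adjusted p = 2.93e-08), while PTPN14 fell by 0.56 (adjusted p = 0.0189). Partners of the PDZ proteins moved both ways, with 7 of 15 tested genes higher and 5 lower (18 listed, median 0.06). SDC1, the syndecan that syntenin binds and a plasma cell marker, averaged 2121 CPM under the EFNB2 guide and 3015 CPM under the control guide and fell by 0.51 (adjusted p = 1.85e-06). OCLN and AFDN, junction proteins tied to ZO-1, fell by 0.47 (adjusted p = 3.96e-07) and 0.93 (adjusted p = 4.46e-05). F11R, a junction adhesion protein, rose by 0.20 (adjusted p = 6.26e-06). FAS, a death receptor that PTPN13 binds, rose by 0.44 (adjusted p = 3.49e-06). KIF5B, the kinesin that carries GRIP1, rose by 0.18 (adjusted p = 1.8e-05).

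Of 12 other metalloprotease genes listed 10 were tested, of which 6 passed as higher, 1 as lower and 3 did not pass (median 0.31), against 22.8% of all tested genes as higher and 22.6% as lower. ADAM19 averaged 1.28 CPM under the EFNB2 guide and 0.332 CPM under the control guide and rose by 1.95 (adjusted p = 2.45e-07). ADAM8 rose by 0.51 (adjusted p = 0.000185) and ADAM12 by 0.60 (adjusted p = 0.000293). ADAM28, a lymphocyte metalloprotease, averaged 10.3 CPM under the EFNB2 guide and 19.7 CPM under the control guide and fell by 0.93 (adjusted p = 4.5e-09). Of the 10 genes that mature, traffic or inhibit ADAM10, 6 passed as higher and 1 as lower (median 0.14). The 6 included inhibitors as well as genes that mature or traffic ADAM10. Without both A libraries 4 of the list passed as higher and 2 as lower. FURIN, a convertase that removes the ADAM10 prodomain and lies on chromosome 15, averaged 105.7 CPM under the EFNB2 guide and 65.1 CPM under the control guide and rose by 0.70 (adjusted p = 4.86e-10). PCSK7, another such convertase, rose by 0.18 (adjusted p = 0.0076). TSPAN15 and TSPAN33 are tetraspanins that escort ADAM10, and TSPAN15 rose by 1.01 (adjusted p = 3.13e-05) while TSPAN33 fell by 0.22 (adjusted p = 0.000644).

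Of the 6 gamma-secretase genes, 0 passed as higher and 1 as lower by edgeR (median -0.07). Without both A libraries 5 passed as lower, against 27.2% of all tested genes. APH1A, the subunit called, averaged 346.7 CPM under the EFNB2 guide and 368.2 CPM under the control guide and fell by 0.09 (adjusted p = 0.049), a call kept in 8 of 20 alternatives. Of 24 listed other reverse signalling genes 23 were tested, of which 10 were higher, 5 lower and 8 not called (median 0.11), and 11 were higher and 8 lower without both A libraries. FYN, a Src family kinase, averaged 30.2 CPM under the EFNB2 guide and 24.7 CPM under the control guide and rose by 0.29 (adjusted p = 9.19e-06). FLOT1, a raft protein, rose by 0.23 (adjusted p = 2.72e-06), and TIAM1, a RAC exchange factor, rose by 0.18 (adjusted p = 5.8e-05). RGS3, which binds the ephrin-B tail through a PDZ domain, fell by 0.78 (adjusted p = 1.62e-05). CNKSR1, a scaffold, fell by 0.50 (adjusted p = 0.000561), and the GTPase CDC42 fell by 0.14 (adjusted p = 0.00172).

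Among the 9 listed B ephrins and receptors, 4 were tested. Beside EFNB2, EPHB6, a receptor without kinase activity, averaged 9.75 CPM under the EFNB2 guide and 7.16 CPM under the control guide and rose by 0.45 (adjusted p = 4.89e-05). EPHB1 averaged 0.141 CPM under the EFNB2 guide and 0.347 CPM under the control guide and fell by 1.27 (adjusted p = 0.00406). EPHB4 was not called, at 6.35 CPM under the EFNB2 guide and 6.38 CPM under the control guide (adjusted p = 0.959). EFNB1 had 39 counts over the 5 EFNB2 guide libraries and 16 over the 5 control guide libraries, and EFNB3 had 22 over the EFNB2 guide libraries and 18 over the control guide libraries, and neither passed the filter. Over the 8 lists, 101 of 118 genes were tested, of which 36 passed as higher and 26 as lower, 61.4% in all, against 45.4% of all tested genes. Without both A libraries 36 passed as higher and 39 as lower, 75 of the 101 in all, against 55.2% of all tested genes. The shares of all tested genes were then 28.0% as higher and 27.2% as lower. At a mean log2 CPM of 1 or more, where 88 of the 101 genes lay, 54.5% of all tested genes were called. The 101 genes had a median log2 fold change of 0.00, against a median of 0.01 over all tested genes.

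**Figure D5:**
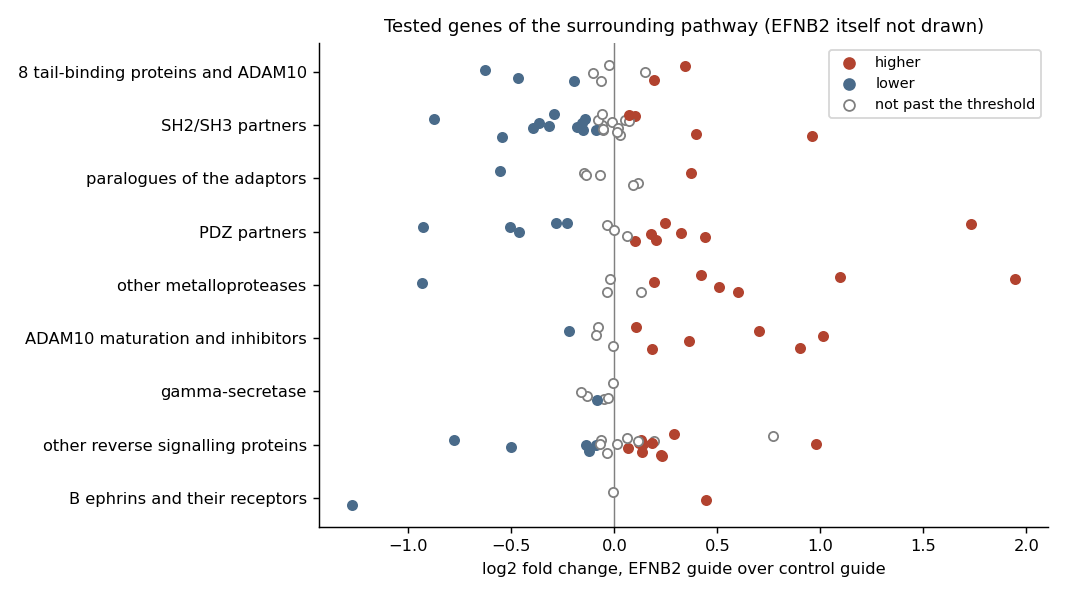
Log2 fold change (EFNB2 guide over control guide) of each tested gene, by list, with red for genes called as higher, blue for lower and open circles for genes not called. The 9 genes of the top line lie between -0.63 and 0.34, within the span of most other lists, and EFNB2 itself is not drawn.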

How the data were processed

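Results rest on the unnormalized gene counts that the authors deposited. Their second deposited table, a normalized signal, served in 1 alternative. STAR 2.27a, Partek, DESeq2 and GRCh38 appear in the submitters' processing notes, without roles. The annotation and strand setting of the counting step: not given in the sources used here. Per the labels' protocols, poly(A) RNA was made into strand-specific libraries and read from both ends. Library totals of 47267929 to 56513336 counts limit the precision. The floor of 3 counts covers counting error only, while intervals of ± 2 SE also hold the spread between libraries.

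Groups came from the guide named in sample titles. The 9 genes and all lists were chosen with earlier results of these data known. Of the rows read, 4 named no gene (at most 0.000401% of a library's counts) and were left out. Genes passing filterByExpr were compared by edgeR 4.0.16 (R 4.3.3), with TMM scaling, the quasi-likelihood test, 1 term for the guide, and Benjamini-Hochberg adjustment over all 17833 genes, at a threshold of 0.05. The SE is the absolute log2 fold change over the square root of F. Log2 CPM used a prior count of 2. Within pairs of libraries, r was 0.9937 to 0.996 for the same guide and 0.9831 to 0.9861 for different guides, and no pair agreed within sampling noise. Ratios (0.5 added to counts) were compared by a two-sided exact permutation test, with p adjusted over 3 ratios, of which 1 is not reported here. Named genes are the 9 genes, EFNB2, up to 3 rises and 3 falls per list by smallest adjusted p, the ratio partners, and the 2 genes most like each called one. Genes named for shared or overlapping sequence were added after their values were seen. Positions and windows came from RefSeq, exon lengths and overlaps from GENCODE 29. Alternatives used DESeq2 1.42.0, limma 3.58.1, other scalings and filters, a block for the replicate letter, log2(value + 1) of the normalized table, and left-out libraries.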

Additional observations from a re-analysis of the deposited data

How the results depend on the processing

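Over 20 alternatives, 4 to 7 of the 9 genes passed the threshold, against 5 in the analysis reported. NCK1, NCK2, GRIP1 and ADAM10 passed in all 20, and each of the 9 genes kept its direction in all 20. Each scaling moved the median of all genes by less than 0.1 on the log2 scale, the furthest being -0.0252 with the deposited normalized values. On that scale, log2(value + 1), 6 of the 47 called genes named here moved by over 1.5 times and kept their direction. They were EFNB2 (0.967 in place of 3.316), ADAM19 (0.767 in place of 1.946), EPHB1 (-0.242 in place of -1.272), AFDN (-0.524 in place of -0.929), PTPN14 (-0.284 in place of -0.556) and TSPAN15 (0.628 in place of 1.011). Over the 8 lists, 55 to 75 genes passed, against 62, and the highest number came without both A libraries. Leaving out 1 library at a time gave 4 to 6 of the 9 genes and 55 to 68 list genes. Differences in log2 ratio then ran from -0.306 to -0.245 for NCK2 to NCK1 and from 0.356 to 0.382 for ADAM10 to ADAM17. Without both A libraries, a setting added for the ratios after the data were seen, they were -0.271 for NCK2 to NCK1 and 0.391 for ADAM10 to ADAM17. TJP1 lost its call under limma-voom (adjusted p = 0.0508) and RLE scaling (0.0531). PTPN14 lost its call without the control guide E library (0.0531). A stricter minimum, 1 CPM or more in 5 libraries, left EFNB2 untested.

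Both groups carry the letters A to E, but the labels do not say that a letter marks a shared batch. Same-letter libraries did not deviate together, with r between -0.237, the value of the A libraries, and -0.003. With the letter as a replicate block, 4 of the 9 genes and 55 list genes passed. TJP1 then had a difference of 0.191 and was not called (adjusted p = 0.115). The paired differences were -0.274 for NCK2 to NCK1 and 0.367 for ADAM10 to ADAM17, each with an exact sign-flip p of 0.062, which is the smallest that 5 pairs allow.

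Genes at the level of EPHB1 or EFNB1 rest on few counts, which limits their precision.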

Other observations

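The 20 tested genes nearest to each member on its chromosome show how its surroundings behaved. Around GRIP1, 4 of 20 neighbours were higher and 4 lower, with a median log2 fold change of 0.02, and 0 of 20 had a lower value than GRIP1. Around NCK2, 2 were higher and 6 lower (median -0.10), and 3 had a lower value than NCK2. Around NCK1, 3 were higher and 6 lower (median -0.01), and 3 had a lower value than NCK1. Around TJP1, 15 of 20 were higher and 0 lower by edgeR (median 0.48), and 3 had a lower value than TJP1. Around ADAM10, 11 were higher and 1 lower (median 0.20), and 15 had a lower value than ADAM10. GRIP1 thus had a lower value than all 20 of its neighbours, whose log2 fold changes ran from -0.228 to 0.562. TJP1 was lower than most of its own. Inside an intron of TJP1 the pseudogene HMGN2P5, on the opposite strand, had 7006 counts in all against 11020 for TJP1. Its log2 fold change was 0.23 (edgeR, adjusted p = 0.00805). Whether the reads counted for HMGN2P5 came from this place was not tested.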
